A study of Mus musculus with 6 samples.

Results

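Long noncoding RNAs (lncRNAs) that were well expressed in cultured mouse blood progenitors with MLL-ENL were compared between cells without and with LIN28B. The genes described here are those that the deposited table types as lncRNA and that were selected on their level, with at least 5 TPM in at least 3 of the 6 libraries, whichever group those libraries belonged to. TPM are transcript levels corrected for gene length and for library size. The rule took 181 genes, out of 9959 lncRNA gene IDs and 55471 gene IDs in all, and 2499 of the lncRNA IDs had a value above 0 in some library. Both groups were GMLPs, taken from bone marrow by a lineage-negative, Kit+, Sca1+, CD48+, CD150- gate and then cultured with DOX for 3 days. The ME group (3 libraries) had the genotype MLL-ENL and the L28BME group (3 libraries) had the genotype LIN28B*MLL-ENL, so the MLL-ENL allele, DOX and the culture were common to all 6 libraries and no library was free of them. Strain, age, sex and the promoters that drive the alleles were not given here. Nor is it stated whether libraries of a group came from separate animals or cultures, so every test measures the spread between these libraries, which may be technical. RNA was converted to libraries with the TruSeq Stranded mRNA kit, which selects polyadenylated RNA, so RNAs without a poly(A) tail are captured poorly.

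A lncRNA is a transcript without a recognised long reading frame. Some act in the nucleus as RNA: Neat1 is the scaffold of paraspeckles, Malat1 lies in nuclear speckles, and Xist coats and silences an X chromosome. Others are mainly carriers of small RNAs: the introns of the Snhg genes and Gas5 hold small nucleolar RNAs (snoRNAs), which guide the chemical modification of ribosomal RNA, and transcripts such as Mir142hg and Mir17hg are cut into microRNAs. LIN28B is a fetal RNA-binding protein that binds the precursors of let-7 microRNAs and blocks their maturation.

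Lin28b was listed at 0 TPM in the 3 ME libraries and had 11.2, 11.7 and 11.9 TPM in L28BME, as the genotypes state. Of the genes for proteins that the gate requires, Ly6a, which encodes Sca1, fell from 10.6 TPM ± 1.09 (SD, n = 3) in ME to 2.07 TPM ± 0.970 in L28BME (log2 difference -1.96, limma adjusted p = 0.00376) and Cd48 from 297 TPM ± 5.29 to 228 TPM ± 2.24, while Kit did not pass the test. Among 3 further progenitor and blood cell markers, Flt3 rose from 96.6 TPM ± 3.96 to 187 TPM ± 2.10 (0.95, limma adjusted p = 0.00016), Cd34 fell from 506 TPM ± 3.71 to 440.2 TPM ± 3.76, and Ptprc did not pass. The 7 markers of cells that the gate removes were all below the level needed for testing, with Cd3e and Cd8a at 0 in every library, and their summed TPM ranged from 0.706 to 1.23 in ME and from 2.21 to 2.45 in L28BME. The part of these marker differences in the lncRNA results below was not tested. In bulk RNA, fewer cells of a kind and less RNA per cell cannot be told apart. TPM carry no read counts, so depth is unknown and no counting interval is given.

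The 181 lncRNAs covered a wide range of levels, and a few of them held most of their summed TPM. Their mean TPM over the 6 libraries ran from 4.02 for Gm20658 to 1937 for Gm42418, with a median of 10.7, and 13 of them reached 100 TPM. The 10 most abundant held 58.3% of the summed TPM, and this share includes Gm42418, a gene model at a ribosomal RNA repeat. In order of mean level these 10 were Gm42418, Gas5, AI506816, AI662270, Snhg1, 2410006H16Rik, 1110038B12Rik, Malat1, Zfas1 and Gm10076, and 6 of them (Gas5, AI506816, Snhg1, 2410006H16Rik, 1110038B12Rik and Zfas1) contain snoRNA genes. GENCODE M21, on the GRCm38 build, classed 74 of the lncRNAs as lincRNA, 53 as processed transcript, 39 as antisense, 9 as transcribed from a bidirectional promoter, 3 as sense intronic, 2 as sense overlapping and 1 as protein coding. Exonic length ran from 168 bases for Bc1 to 20771 bases for Neat1. A gene just inside the threshold was Gm26779, whose last library needed for entry had 5.01 TPM, followed by 2210408F21Rik at 5.02 and Gm34574 at 5.04. Just outside it lay 4632404H12Rik at 4.96, 1700007L15Rik at 4.90 and Ftx at 4.86.

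Between the groups, 12 of the 181 lncRNAs rose in L28BME and 24 fell, at a limma adjusted p under 0.05 with adjustment over all 13348 tested genes, and 145 did not pass. The 12 that rose are 6.63% of the set, and the background was 8.28% of all tested genes and 9.65% of the 9505 protein-coding genes under the same level filter. The 24 that fell are 13.3% of the set, against 6.60% of all tested genes and 7.49% of those coding genes. Values of the 3 ME and 3 L28BME libraries did not overlap in 74 of the 181 (40.9%), against 36.7% of all tested genes and 40.1% of the coding genes. The median log2 difference (L28BME minus ME, on log2(TPM + 1), a scale that understates the change of low genes) was -0.04 for the lncRNAs and 0.00 over all tested genes. Of the lncRNAs, 170 had a library of at least 5 TPM in both groups, and of these 11 rose and 20 fell. Groups did not overlap in 63 of these 170 (37.1%), near the share of all tested genes. A further 7 reached 5 TPM in ME libraries only, where a difference is built into the choice, and 4 of them were among the lower genes. Another 4 reached it in L28BME only, and 1 of them was among the higher genes. The groups of all these 7 and 4 genes did not overlap, which the rule fixes in advance.

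**Figure D1:**
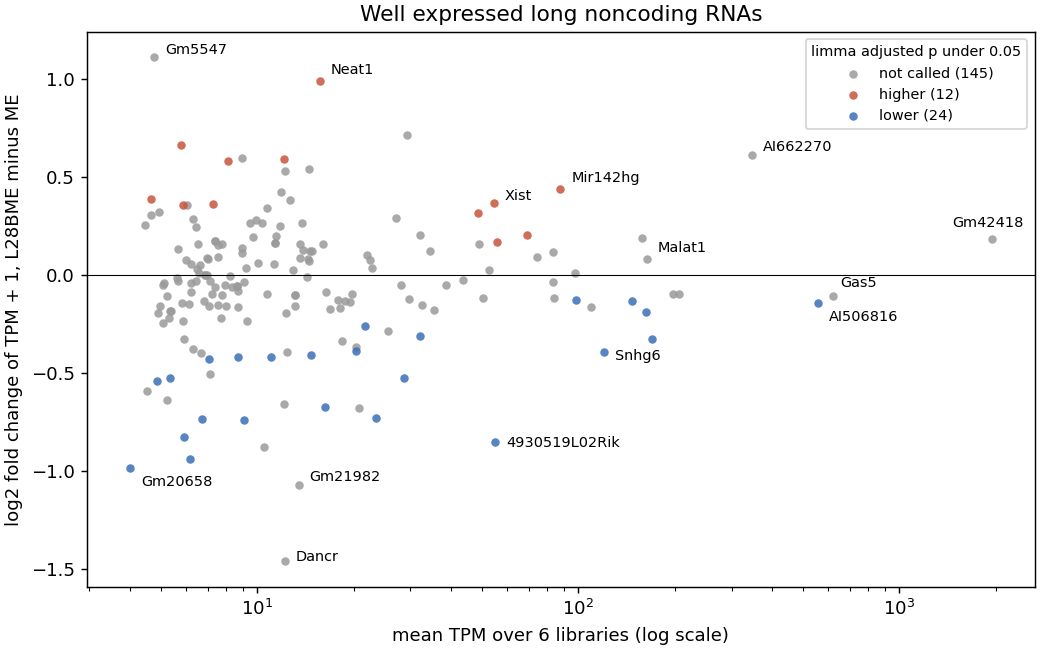
Each point is one of the 181 lncRNAs, with its mean TPM over the 6 libraries on a log axis and its log2 difference of TPM + 1 (L28BME minus ME) on the vertical axis. Red points (12) were higher and blue points (24) lower at a limma adjusted p under 0.05; the blue points at high levels, such as Snhg6 and AI506816, have differences of under 0.5.

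By annotation class, counts are set beside all tested genes, of which 8.28% rose and 6.60% fell. Among the 53 processed transcripts, the class that holds most snoRNA hosts, 0 rose and 10 fell (18.9%). At an unadjusted limma p under 0.05 these gave 3 higher and 15 lower, against 2130 higher and 1824 lower of the 13348 tested genes. The 74 lincRNAs divided into 8 higher (10.8%) and 7 lower (9.46%), and the 39 antisense genes into 3 higher (7.69%) and 6 lower (15.4%). Libraries of a group differed more in the 181 lncRNAs than in the 9505 coding genes: the median SD of the residuals on the log2 scale was 0.145, against 0.0838. The lncRNAs were also lower in level, with a median mean TPM of 10.7 against 37.2. At mean levels of 30 TPM or more, where noise was lower (median 0.0748 for 35 lncRNAs and 0.0655 for 5452 coding genes), 5 lncRNAs rose and 8 fell (14.3% and 22.9%), against 9.76% and 8.44% of the coding genes. These 8 were the snoRNA hosts Snhg6, 1110038B12Rik, Zfas1, AI506816 and Snhg3, described below, and 4930519L02Rik, AU020206 and Gm28875. The 389 lncRNAs that were tested but lay under the rule gave 10 higher (2.57%) and 9 lower (2.31%).

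**Figure D2:**
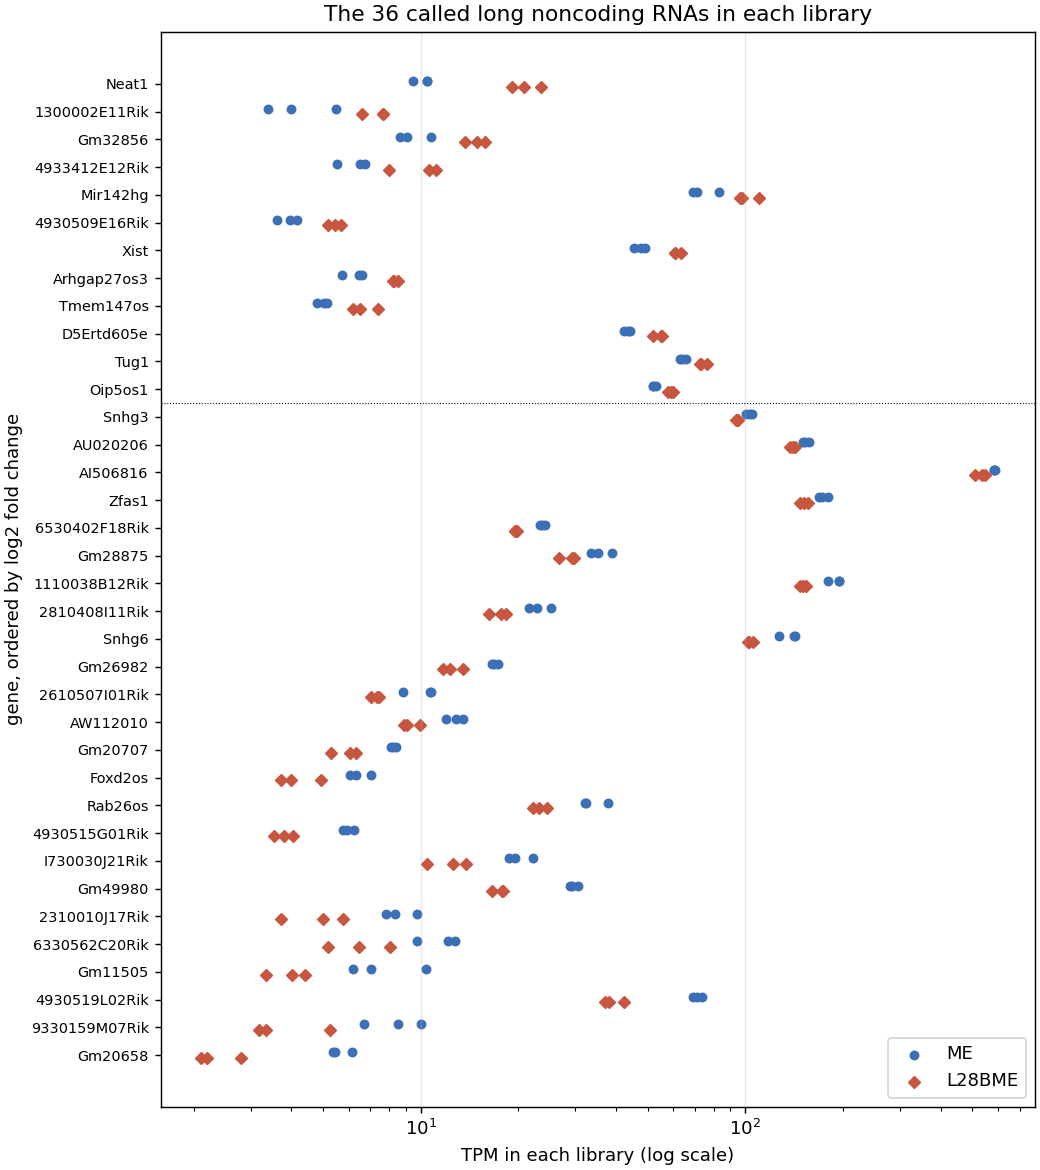
TPM of the 36 called lncRNAs in each library on a log axis, with circles for the 3 ME libraries and diamonds for the 3 L28BME libraries, ordered by log2 difference from Neat1 at the top to Gm20658 at the bottom. The circles and diamonds of each gene are separate in all 36, which were chosen by their adjusted p, so the separation is no further support.

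Among 24 host genes of snoRNAs, 7 fell (29.2%) and 0 rose, where 6.60% of all tested genes fell, 8.28% rose, and 8.44% of coding genes with a mean of 30 TPM or more fell. The group was formed, after values had been seen, from the 24 lncRNAs with an annotated snoRNA gene inside their span on the same strand. In AI506816 and 2900076A07Rik the only such gene carries a microRNA name, Mir3096 and Mir1839. The 7 were Snhg6, 1110038B12Rik, Rab26os, 9330159M07Rik, Zfas1, AI506816 and Snhg3. At an unadjusted limma p under 0.05 10 were lower and 0 higher, against 1824 lower and 2130 higher of the 13348 tested genes. A negative log2 difference was found in 21 of the 24, and the median was -0.13; with overlapping models on the same strand summed, Snhg4 and Snhg20 turned to 0.06 and 0.15. The other 157 lncRNAs gave 12 higher and 17 lower, with a median of -0.01. The TPM of the 24 hosts summed to 2803, 2845 and 2828 in the ME libraries and to 2523, 2584 and 2554 in the L28BME libraries. The 2 groups of sums did not overlap, and the difference of -272 TPM had an exact two-sided permutation p of 0.1, the smallest that 3 against 3 libraries allow. On a list of host genes written by symbol, 17 were tested, of which 0 rose and 3 fell (Snhg6, Zfas1 and Snhg3), 16 had a negative difference and the median was -0.13. With any 1 library left out, 3 to 5 of the 24 hosts fell. Excluding hosts that share exonic bases with a protein-coding gene left 18, of which 4 fell.

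Snhg6 (ENSMUSG00000098234, chr1:9941959-9944118, minus strand, GRCm38), whose intron holds Snord87, stood at 127, 142 and 141 TPM in ME and at 102, 102 and 106 TPM in L28BME. All 3 L28BME values were below all ME values, a 1.32-fold difference of means, with a log2 difference of -0.40 (SE 0.053, limma adjusted p = 0.0063). For 1110038B12Rik (ENSMUSG00000092203, chr17:34950238-34952471, minus strand), which contains Snord52, the values were 180.2, 194 and 194 TPM in ME against 150.3, 147 and 154 TPM in L28BME. These also did not overlap, and the log2 difference was -0.33 (SE 0.041, limma adjusted p = 0.00496). Rab26os, an RNA of 497 exonic bases on chr17 that holds Snord60, measured 32.1, 37.8 and 32.3 TPM in ME and 24.6, 23.2 and 22.1 TPM in L28BME, with a log2 difference of -0.53 (SE 0.08, limma adjusted p = 0.00988). The lower levels of these 3 genes passed the test with any library left out.

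The other 4 falls among the hosts lost their call in most fits with a library left out. The longer and rarer 9330159M07Rik went from 8.41 TPM ± 1.67 (SD, n = 3) to 3.93 TPM ± 1.15 (log2 difference -0.94, limma adjusted p = 0.0317), without overlap. It kept its call in 2 of the 6 fits with a library left out, although the log2 difference stayed between -1.12 and -0.82. Zfas1, transcribed from the opposite strand next to Znfx1 and host of Snord12, went from 173 TPM ± 5.72 to 152 TPM ± 4.38 (-0.19, limma adjusted p = 0.0257). AI506816, among the most abundant of all, went from 585 TPM ± 2.25 to 531 TPM ± 18.1 (-0.14, limma adjusted p = 0.034); the gene inside it that is annotated as a snoRNA carries the name Mir3096. Snhg3 went from 103 TPM ± 2.09 to 94.2 TPM ± 0.616 (-0.13, limma adjusted p = 0.0492). Zfas1 and AI506816 each kept the call in 1 of the 6 fits with a library left out, and Snhg3 in 0. Snhg3 shares exonic bases with Rcc1, and its log2 difference was -0.08 (limma adjusted p = 0.096) when the TPM of gene models sharing exonic bases on the same strand were summed. Summed in that way, Zfas1 did not pass either (-0.32, limma adjusted p = 0.169).

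The hosts that did not pass include the most abundant. Gas5, with 10 annotated genes typed as snoRNA inside it, measured 663, 622 and 642 TPM in ME and 591, 617 and 584 TPM in L28BME (log2 difference -0.10, limma adjusted p = 0.11). Its groups did not overlap, although ME replicate 2 and L28BME replicate 2 lay close to each other. Snhg1 measured 199.7, 213 and 221 TPM in ME and 176, 236 and 185 TPM in L28BME (-0.10, limma adjusted p = 0.623), so its groups overlapped. AA465934, host of Snord7, went from 14.2 TPM ± 2.16 to 10.5 TPM ± 0.244 (-0.39, limma adjusted p = 0.0659). Snhg15, Snhg16, Snhg20, Epb41l4aos, Snhg12, Snhg9, Snhg4, 2410006H16Rik, Snhg8 and Snhg17 had log2 differences from -0.18 to -0.02, and Snhg5, 2900076A07Rik and 2700038G22Rik from 0.10 to 0.12. Proteins that act with snoRNAs or on such transcripts did not pass the test: 0 of 10 proteins of box C/D and H/ACA snoRNPs (median log2 difference -0.08; 2 lower at an unadjusted limma p under 0.05) and 0 of 10 factors of nonsense-mediated decay (median -0.03; 3 lower at an unadjusted p under 0.05), the pathway that degrades many spliced host RNAs. Over all tested genes, 8.28% rose and 6.60% fell. The snoRNP proteins with the smallest p were Nhp2 (340.0 TPM ± 7.21 and 307 TPM ± 15.1, limma adjusted p = 0.0695), the pseudouridine synthase Dkc1 (274 TPM ± 13.3 and 248 TPM ± 7.53, adjusted p = 0.0858) and the methyltransferase Fbl (421 TPM ± 11.7 and 395 TPM ± 14.7, adjusted p = 0.169).

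**Figure D3:**
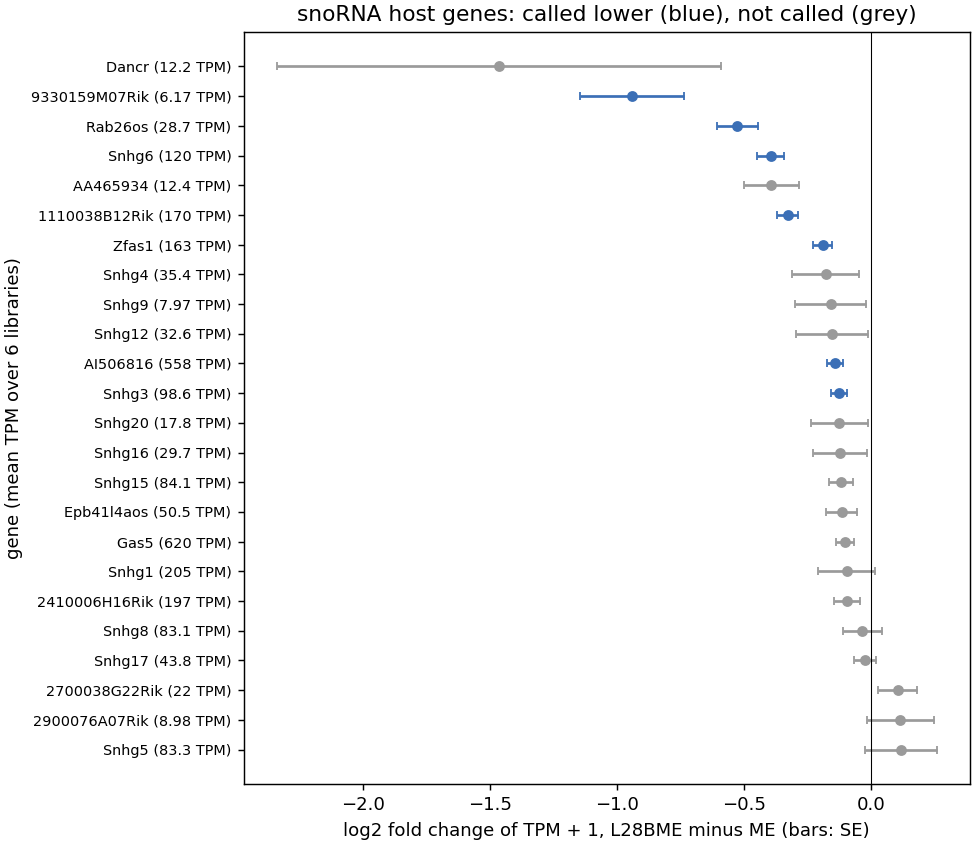
log2 difference of TPM + 1 (L28BME minus ME) with its SE from limma for the 24 lncRNAs that contain snoRNA genes, with the mean TPM over the 6 libraries beside each name. The 7 blue genes were lower at a limma adjusted p under 0.05; 21 of the 24 points lie left of 0, most of them by under 0.2, and Dancr has the widest error.

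Many snoRNA hosts are known to start within a run of pyrimidines (C or T), as messages for ribosomal proteins do, a feature that ties translation to nutrient signals. RefSeq promoter sequences (GRCm38.p6) matched 117 of the 181 lncRNAs, 21 hosts among them. In windows of 30 bases, from 10 before to 20 after an annotated start, a run of at least 7 bases that are each C or T on the strand of the gene was found for 13 of the 21 hosts (61.9%). The share was 29.2% of the 96 other lncRNAs with a window, 52.5% of 61 ribosomal protein genes and 20.5% of the 27025 genes of the promoter table. The run could lie anywhere in a window, and a gene with several windows counted if any of them held such a run. Whether transcripts start within the run was not tested. The windows show hosts with such a run, both among those that fell and among those that did not pass, with the longest pyrimidine run in capitals; Zfas1 stands for the 8 hosts without a run of that length.
Rab26os (fell): agcagtcgCTCTTTTTgggagtgagtgtgt
1110038B12Rik (fell): gcacacgggTCTCTTTgtgcacccgcccac
AI506816 (fell): cctggcgccctgCTCTTCCgccgcggcgcg
Zfas1 (fell): tgcgCCCCgggcggccgcaggtctcggctg
Snhg12 (did not pass): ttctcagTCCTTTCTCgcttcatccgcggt
Snhg1 (did not pass): tcttgtcggcctcaTTTTTCCTTgttcggg
Snhg8 (did not pass): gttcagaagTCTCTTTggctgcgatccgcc
A run of C and T in such a window is a description of the sequence and was not tied to the difference between groups.

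Neat1 showed the largest rise among the lncRNAs that passed the test. The gene (ENSMUSG00000092274, chr19:5824708-5845478, minus strand, GRCm38) encodes the RNA around which paraspeckles form. Its level was 10.5, 10.4 and 9.46 TPM in ME and 23.6, 20.8 and 19.1 TPM in L28BME. Every L28BME library was above every ME library, and the ratio of means was 2.09-fold. These libraries select polyadenylated RNA, and gene TPM do not tell the transcripts of Neat1 apart. Paraspeckles and their scaffold were therefore not measured. The log2 difference was 0.99 (SE 0.091, limma adjusted p = 0.00187), and it passed with each library left out in turn (adjusted p from 0.00661 to 0.011). Gm27505, a short model annotated inside the Neat1 exon on the same strand, was listed at 0.494, 0.710 and 0.554 TPM in ME and at 82.5, 95.9 and 89.8 TPM in L28BME (log2 difference 5.83, limma adjusted p = 8.47e-06). The difference of Gm27505 was the largest positive one of all 13348 tested genes. With the models inside Neat1 summed in, the log2 difference was 3.21 (limma adjusted p = 1.62e-05), in the same direction. The size of this sum follows Gm27505 and is not a level of Neat1 itself. How reads were divided between Gm27505 and Neat1 was not tested. Of 8 paraspeckle proteins, 1 rose and 0 fell, a share near the 8.28% of all tested genes that rose. This was Pspc1, one of the core proteins, which went from 28.6 TPM ± 1.56 to 38.8 TPM ± 4.45 (SD, n = 3, log2 difference 0.42, limma adjusted p = 0.0332) and kept the call in 2 of the 6 fits with a library left out. The next smallest p belonged to genes that did not pass, Hnrnpk at 766 TPM ± 73.0 and 656 TPM ± 75.5 (adjusted p = 0.208) and Sfpq at 405 TPM ± 15.1 and 432 TPM ± 25.8 (adjusted p = 0.311).

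Malat1, the neighbour of Neat1 on chr19 and far more abundant per length, measured 182, 148 and 146 TPM in ME and 189, 164 and 150.0 TPM in L28BME. The groups overlapped, and the log2 difference was 0.08 (SE 0.12, limma adjusted p = 0.695). Tug1, a nuclear lncRNA, rose from 65.6, 63.0 and 63.9 TPM to 73.3, 76.4 and 72.6 TPM, without overlap (0.20, SE 0.038, limma adjusted p = 0.02). It kept the call in 2 of 6 fits with a library left out, and its exons overlap those of Morc2a on the other strand: with models that share bases on either strand summed, the log2 difference was 0.05 (adjusted p = 0.457). In a list of 23 nuclear and chromatin lncRNAs, 11 were tested, 3 rose (Neat1, Xist and Tug1) and 0 fell. Over all tested genes, 8.28% rose and 6.60% fell. The median log2 difference of the list was 0.16. Its members that did not pass were Firre, Peg13, Pvt1, Jpx, Malat1 and 2900097C17Rik among the well expressed genes; 2900097C17Rik stood at 97.4 TPM ± 0.318 and 98.1 TPM ± 2.17.

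Xist (ENSMUSG00000086503, chrX:103460366-103483254, minus strand), the RNA that silences an X chromosome, stood at 47.8, 49.2 and 45.5 TPM in ME and at 60.6, 63.2 and 60.9 TPM in L28BME. All 3 L28BME libraries were above all 3 ME libraries, and the log2 difference was 0.37 (SE 0.045, limma adjusted p = 0.00447). Y-linked genes were read in the same libraries: their summed level was 156, 144 and 144 TPM in ME and 138, 137 and 129 TPM in L28BME, without overlap (exact two-sided permutation p = 0.1, the smallest possible). Among them Kdm5d (16.6 TPM ± 0.822 and 15.4 TPM ± 1.32, limma adjusted p = 0.432) and Eif2s3y (73.3 TPM ± 3.16 and 66.7 TPM ± 1.15, limma adjusted p = 0.0993) did not pass, nor did Uty (13.9 TPM ± 1.69 and 10.3 TPM ± 1.36, log2 difference -0.41, adjusted p = 0.0889) or Ddx3y (36.9 TPM ± 2.40 and 35.2 TPM ± 4.53, -0.07, adjusted p = 0.697). No label gives the sex of the mice, and the part of the sex make-up of the cells in the Xist difference was not tested. Tsix, the antisense partner of Xist, was at or below 0.103 TPM in every library. Of the other X-linked lncRNAs of this kind, Firre went from 24.1 TPM ± 1.22 to 29.9 TPM ± 4.93 (log2 difference 0.29, limma adjusted p = 0.16), and Jpx from 5.20 TPM ± 0.488 to 4.98 TPM ± 0.543 (-0.05, adjusted p = 0.791).

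**Figure D4:**
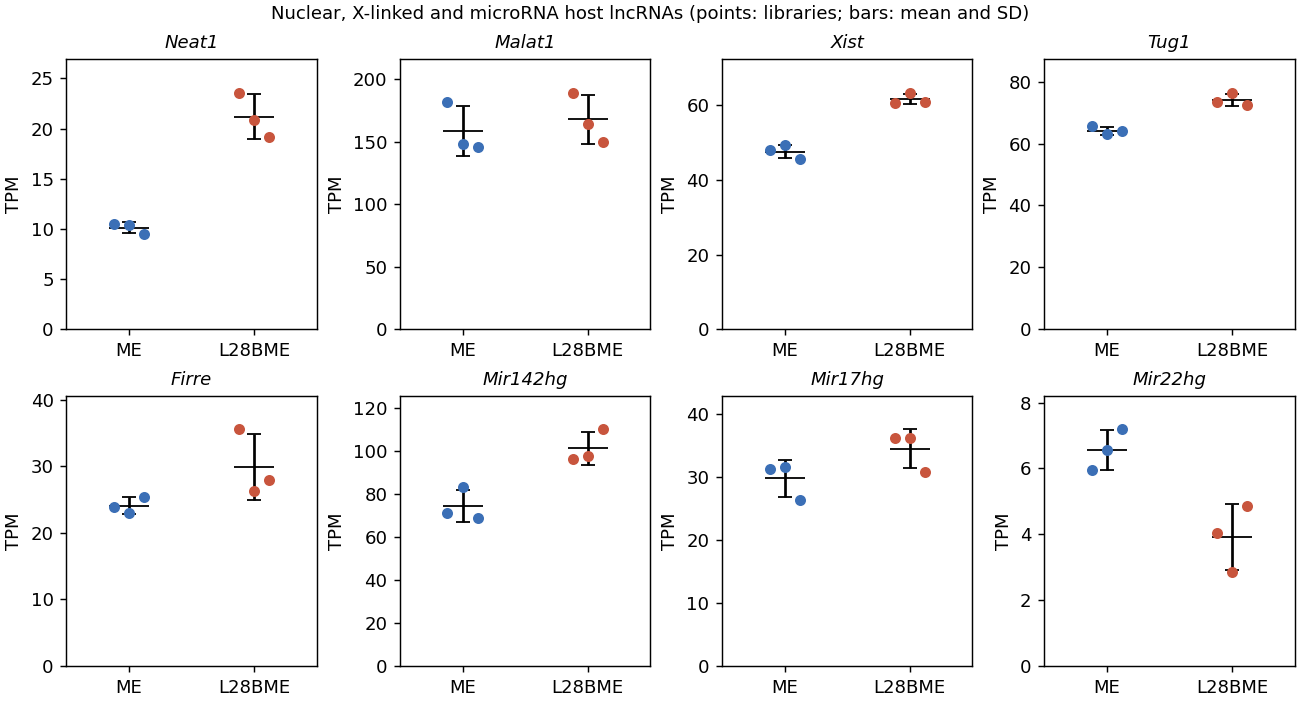
TPM of 8 lncRNAs in each library, each panel with its own linear axis from 0; points are the 3 ME (blue) and 3 L28BME (red) libraries and bars the mean and SD. Neat1, Xist, Tug1 and Mir142hg separate upward in L28BME and passed the test, whereas Malat1, Firre, Mir17hg and Mir22hg did not pass.

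Of 9 lncRNAs that contain microRNA genes on their own strand, 1 rose and 0 fell in limma. Over all tested genes, 8.28% rose and 6.60% fell. At an unadjusted limma p under 0.05, 1 of the 9 was higher and 1 lower. The mature microRNAs of the hosts that results turn on are printed from RefSeq (GRCm38.p6), with the seed (bases 2 to 8), which selects targets, in capitals. The hosts are read here as long transcripts only, since mature microRNAs are too short and lack the tail for these libraries. The seeds of miR-17-5p and miR-20a-5p, both from Mir17hg, are the same.
mmu-miR-142a-3p (Mir142hg): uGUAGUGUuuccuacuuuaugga
mmu-miR-142a-5p (Mir142hg): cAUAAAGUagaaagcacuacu
mmu-miR-17-5p (Mir17hg): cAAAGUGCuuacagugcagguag
mmu-miR-20a-5p (Mir17hg): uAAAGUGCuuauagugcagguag
mmu-miR-22-3p (Mir22hg): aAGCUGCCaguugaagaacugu
mmu-miR-16-5p (Dleu2): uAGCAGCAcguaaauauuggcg
mmu-miR-15a-5p (Dleu2): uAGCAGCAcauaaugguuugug

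Mir142hg (chr11:87755577-87757270, plus strand), the source of the blood cell microRNA miR-142, measured 71.2, 83.2 and 69.1 TPM in ME and 96.2, 97.5 and 110.1 TPM in L28BME. The groups did not overlap, and the log2 difference was 0.44 (SE 0.088, limma adjusted p = 0.0246). It kept the call in 1 of 6 fits with a library left out, where its adjusted p ran from 0.0185 to 0.0755. Mir17hg, the transcript of the cluster that begins with miR-17, had 31.3, 31.6 and 26.3 TPM in ME and 36.1, 36.2 and 30.8 TPM in L28BME. Its groups overlapped because L28BME replicate 3 lay within the ME range (0.20, limma adjusted p = 0.23). With the microRNA gene models inside it summed in, the log2 difference was 0.29, at the threshold (limma adjusted p = 0.04999); of these, Mir19b-1 was listed at 5.59, 5.66 and 0.213 TPM in L28BME and at no more than 0.239 TPM in ME. Mir22hg had 5.96, 6.55 and 7.18 TPM in ME and 4.05, 2.85 and 4.87 TPM in L28BME, which did not overlap but fell short of the threshold (-0.64, limma adjusted p = 0.0568). It entered the set through its ME libraries alone, so a difference is built into its choice. With the models that share its exonic bases on the same strand summed, Tlcd2 and Mir22, the log2 difference was -0.56 (limma adjusted p = 0.0203), and Tlcd2 alone had 13.1 TPM ± 1.46 and 8.57 TPM ± 2.78 (SD, n = 3). Dleu2, host of miR-15a and miR-16, had 15.2, 13.0 and 11.7 TPM in ME and 5.08, 14.0 and 4.09 TPM in L28BME. Replicate 2 of L28BME lay within the ME range (-0.88, limma adjusted p = 0.209), and without that library the log2 difference was -1.36 with an adjusted p of 0.00933. F630028O10Rik, host of the myeloid miR-223, had 33.0 TPM in ME replicate 1 and 29.9 TPM in L28BME replicate 3 and between 12.2 and 14.8 TPM in the other 4 libraries (limma adjusted p = 0.91). 4833445I07Rik (miR-191 and miR-425), Snhg20, Snhg4 and 2900076A07Rik completed the 9, with log2 differences from -0.18 to 0.11.

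Because LIN28B acts on let-7, the lncRNA transcripts were searched for CTACCTC, the complement of bases 2 to 8 of let-7, on the sense strand of the longest annotated transcript of each gene. All let-7 members in the microRNA table share this seed, as in let-7a.
mmu-let-7a-5p: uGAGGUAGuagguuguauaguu
The motif was present in 29 of the 181 lncRNAs (16.0%) and in 971 of 9751 other lncRNA genes of the table (9.96%). It was present in 7 of the 12 that rose (58.3%), 2 of the 24 that fell (8.33%) and 20 of the 145 that did not pass (13.8%). Longer transcripts have more chances to hold it, and the median lengths were 3143 bases for those that rose, 1218 for those that fell and 1752 for the rest. Per 1000000 bases there were 173 sites in the 12 that rose, 78.0 in the 24 that fell, 75.3 in the 145 that did not pass and 79.5 in the other lncRNA genes. The 12 sites of the higher group lay in Neat1 (4), Xist (2), Gm32856 (2), 1300002E11Rik, 4933412E12Rik, Arhgap27os3 and Oip5os1. They are shown for the genes with more than 1 site, with 10 bases on either side and the motif in capitals; the first pair of Neat1 sites are adjacent.
Neat1 base 10779: gagggcggtcCTACCTCctacctcaac
Neat1 base 10786: gtcctacctcCTACCTCaactcttctc
Neat1 base 14834: cccctgttgaCTACCTCtgccctgagg
Neat1 base 20417: ttcccctctcCTACCTCcccaccacac
Xist base 12410: gccatcctccCTACCTCagaagcccta
Xist base 13632: tgactactaaCTACCTCtgatgtatcc
Gm32856 base 140: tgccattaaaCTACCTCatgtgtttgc
Gm32856 base 3746: tgtcattaaaCTACCTCgtatgtttgc
All 4 Neat1 sites lay at base 10779 or beyond in a transcript of 20771 bases. These libraries select polyadenylated RNA, and gene TPM do not tell which transcript of a gene was read. Whether the measured RNA holds these sites is therefore unknown, and the rate of 173 for the 12 that rose includes the 4 Neat1 sites. A match to these letters describes the sequence only, and mature let-7 was not measured in these libraries.

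Of the remaining lncRNAs that fell, 4930519L02Rik (ENSMUSG00000105652, chr3:143017660-143040752, plus strand) had the smallest adjusted p. It stood at 71.0, 69.3 and 73.4 TPM in ME and at 38.0, 42.2 and 37.0 TPM in L28BME. The groups were far apart, with a ratio of means of 1.82-fold, and the log2 difference was -0.85 (SE 0.06, limma adjusted p = 0.000814). Gm49980 on chr18 fell from 29.2, 28.8 and 30.6 TPM to 17.8, 16.6 and 17.9 TPM, also without overlap (-0.73, SE 0.056, limma adjusted p = 0.00105). Gm20658, the least abundant of the 181, fell from 5.39, 5.45 and 6.16 TPM to 2.20, 2.79 and 2.11 TPM, and so entered the set through its ME libraries alone (-0.99, SE 0.11, limma adjusted p = 0.00385). These 3 genes passed with each library left out. Foxd2os (6.48 TPM ± 0.508 to 4.21 TPM ± 0.642, limma adjusted p = 0.0329), Gm20707 (8.26 TPM ± 0.151 to 5.89 TPM ± 0.54, adjusted p = 0.0231) and 4930515G01Rik (5.97 TPM ± 0.234 to 3.79 TPM ± 0.249, adjusted p = 0.00993) completed the 12 largest falls together with genes described beside their neighbours below. Foxd2os and 4930515G01Rik, like Gm20658, reached 5 TPM in ME libraries only, where a fall is built into the choice. With overlapping models summed, the log2 difference of 4930515G01Rik was -0.07 (either strand, with Ankrd13a, limma adjusted p = 0.124) and that of Gm20707 was -0.21 (same strand, with Zfp984, limma adjusted p = 0.0511). AW112010, 2610507I01Rik, Gm26982, 2810408I11Rik, Gm28875, 6530402F18Rik and AU020206 fell by 0.13 to 0.42 on the log2 scale.

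Among the other lncRNAs that rose, Gm32856 went from 9.08, 10.7 and 8.66 TPM to 14.96, 15.8 and 13.7 TPM, without overlap (log2 difference 0.59, SE 0.099, limma adjusted p = 0.0136). D5Ertd605e went from 44.2, 43.5 and 42.2 TPM to 52.1, 55.3 and 54.9 TPM, again without overlap (0.31, SE 0.043, limma adjusted p = 0.00697), and passed with each library left out. 1300002E11Rik (4.29 TPM ± 1.09 to 7.30 TPM ± 0.596, limma adjusted p = 0.0417) shares exonic bases with Map3k13, a gene listed at a mean of 0.0551 TPM in ME. 4930509E16Rik, Tmem147os and Oip5os1 rose by 0.39, 0.36 and 0.17 on the log2 scale and kept the call in 0 of the 6 fits with a library left out; 4930509E16Rik reached 5 TPM in L28BME libraries only. In a list of 15 blood and immune lncRNAs, 11 were tested, 1 rose (Mir142hg), 2 fell (AI506816 and AU020206) and the median log2 difference was -0.13. Over all tested genes, 8.28% rose and 6.60% fell. Morrbid, which controls the life span of myeloid cells through its neighbour Bcl2l11, did not pass (20.7 TPM ± 2.83 against 16.1 TPM ± 1.85, limma adjusted p = 0.133). Lockd, Bc1 and AI662270 did not pass either. Of 12 Hox cluster lncRNAs and 8 housekeeping noncoding RNAs, 0 were among the 181, and 0 of the 4 that were tested (Hoxaas3, Hotairm1, Rn7sk and Rpph1) passed in limma, also at an unadjusted p under 0.05. Rn7sk and Rpph1 were above 5 TPM in every library and were left out because they are typed misc_RNA and ribozyme, not lncRNA.

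Of the 181 lncRNAs, 50 are counted as head to head with the coding gene of nearest start, with starts on opposite strands within 1000 bp. Pairs whose spans overlap are included, such as 4930515G01Rik with Ankrd13a, so not all of them are divergent. For 143 lncRNAs the coding gene with the nearest start was tested, and the median distance between the starts was 4964 bp. Of these 143 neighbours, 16 rose and 5 fell, where 9.55% of all 10956 tested coding genes rose and 7.27% fell. The 10 lncRNAs that rose and had such a neighbour lay beside 3 coding genes that rose, 0 that fell and 7 that did not pass. The 17 that fell lay beside 1 that rose, 3 that fell and 13 that did not pass. Across all 143 pairs the log2 differences of lncRNA and neighbour had a Pearson correlation of 0.03, and across the 47 head-to-head pairs 0.22; the pairs share the same 6 libraries, and genes are not independent replicates.

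In 6 pairs both genes passed in the same direction, and of the lncRNAs in them I730030J21Rik kept its call with each library left out. The others kept it in 2 (6330562C20Rik), 1 (Gm11505 and 4933412E12Rik) or 0 (Arhgap27os3 and Oip5os1) of the 6 such fits. Gm11505, on the strand opposite to the granule enzyme gene Mpo and overlapping its exons, had 6.18, 10.4 and 7.02 TPM in ME and 4.42, 4.01 and 3.34 TPM in L28BME (log2 difference -0.83, SE 0.19, limma adjusted p = 0.0386), while Mpo went from 5074 TPM ± 19.3 to 4140.1 TPM ± 368 (-0.30, adjusted p = 0.0277). Gm11505 reached 5 TPM in ME libraries only, so a lower value in L28BME is built into its choice. Without strand in the quantification, which is not stated, reads of so abundant a gene and of its antisense partner cannot be told apart. 6330562C20Rik, head to head with the ceramide synthase gene Cers2 and sharing exonic bases with it, fell from 11.6 TPM ± 1.58 to 6.57 TPM ± 1.45 (limma adjusted p = 0.0353), and Cers2 from 289 TPM ± 10.8 to 249 TPM ± 8.71 (adjusted p = 0.0219). I730030J21Rik, which starts 3361 bp from the glycosyltransferase gene Galnt6 on the same strand, fell from 18.8, 19.6 and 22.1 TPM to 10.5, 13.8 and 12.6 TPM (-0.68, limma adjusted p = 0.0137), and Galnt6 from 94.6 TPM ± 0.547 to 72.8 TPM ± 0.787 (adjusted p = 0.00124). Upward, the pairs were 4933412E12Rik with Rab3ip (log2 differences 0.58 and 0.37), Arhgap27os3 with Arhgap27 (0.36 and 0.27) and Oip5os1 with Nusap1 (0.17 and 0.20). The opposite case was 2310010J17Rik, which fell from 8.65 TPM ± 0.981 to 4.83 TPM ± 1.03 (-0.74, limma adjusted p = 0.0285), whereas Picalm, a clathrin adaptor gene that starts 229 bp away on the other strand, rose from 112 TPM ± 2.78 to 128 TPM ± 4.72 (0.20, adjusted p = 0.0269); 2310010J17Rik kept its call in 2 of the 6 fits with a library left out.

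**Figure D5:**
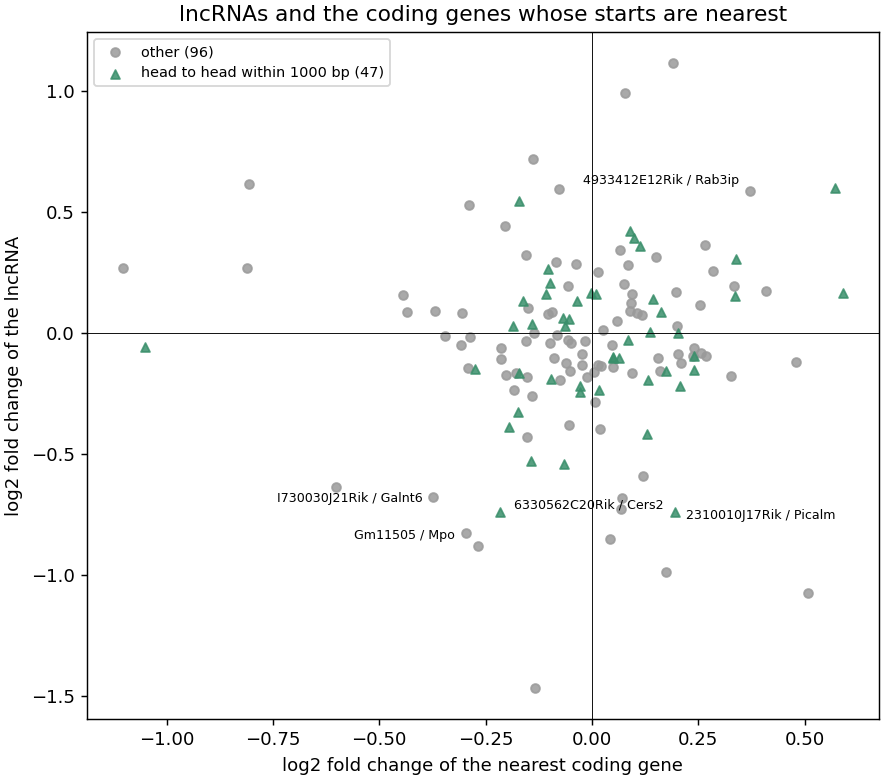
log2 difference of TPM + 1 (L28BME minus ME) of each lncRNA against that of the protein-coding gene with the nearest start, for the 143 pairs in which both were tested; triangles are the 47 head-to-head pairs and circles the other 96. The points fill all 4 quadrants, and the named pairs are those discussed in the text.

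Some lncRNAs differed widely between libraries of the same group. Gm21982 had 1.67, 16.7 and 34.3 TPM in ME and 24.9, 1.62 and 1.64 TPM in L28BME, and Rbm42, whose exons it shares, had 64.7, 38.9 and 9.07 TPM and 15.4, 56.8 and 74.7 TPM in the same libraries. The libraries high in Gm21982 were thus the ones low in Rbm42, and with the gene models that share exonic bases summed the residual SD fell from 1.92 to 0.304 on the log2 scale. 1810026B05Rik, which shares exonic bases with Chd2, had 31.6, 24.2 and 12.7 TPM in ME and 33.4, 36.2 and 37.9 TPM in L28BME (limma adjusted p = 0.181). Dancr, host of Snora26, had 14.6, 18.2 and 15.8 TPM in ME and 11.4, 12.7 and 0.405 TPM in L28BME, so its log2 difference of -1.46 (SE 0.87, limma adjusted p = 0.324) rested on L28BME replicate 3, without which it was -0.39. AI662270 had 191, 197 and 480.1 TPM in ME and 437, 428 and 349 TPM in L28BME (0.62, limma adjusted p = 0.317), and without ME replicate 3 the adjusted p was 0.00896. Gm5547, which had the largest positive log2 difference of all 181, had 2.85, 4.11 and 1.28 TPM in ME and 6.27, 5.52 and 8.56 TPM in L28BME (1.11, limma adjusted p = 0.0693) and entered the set through its L28BME libraries alone.

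The summed level of all 181 lncRNAs did not separate the groups. It was 7950 TPM, 7399 TPM and 7705 TPM in ME and 8136 TPM, 8112 TPM and 7176 TPM in L28BME, a difference of 123 TPM (exact two-sided permutation p = 0.8). Gm42418, a gene model on chr17 at a ribosomal RNA repeat, contributed 2133, 1574 and 1706 TPM in ME and 2398, 2275 and 1537 TPM in L28BME (limma adjusted p = 0.589), so the sum moved largely with it. Without it the difference was -142 TPM (exact two-sided permutation p = 0.3). The other models at this repeat, Gm26917 (19.7 TPM ± 2.11 and 17.9 TPM ± 1.76) and AY036118 (22.2 TPM ± 3.97 and 18.3 TPM ± 9.24), did not pass the test.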

How the data were processed

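RNA of 6 libraries of cultured GMLPs (ME, n = 3; L28BME, n = 3) was analysed from the gene TPM that the authors deposited. Per the submitters' processing notes, bcl2fastq, HISAT2, StringTie and DESeq2 were used with GRCm38; no source used here gives their versions, the annotation release or the strand setting. A percent GC per gene stands beside the deposited values. Because TPM are not counts, DESeq2 and other count models were not used here and depth is unknown.

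Genes with at least 1 TPM in at least 3 libraries (13348) were tested with limma 3.58.1 in R 4.3.3 on log2(TPM + 1), with an intensity trend, group as the only term and Benjamini-Hochberg adjustment over all of them. The procedure was tested on simulated data. Sums of TPM over genes were compared by exact two-sided permutation of the 6 libraries. Tables were handled with Python 3.11.15 and pandas 2.3.3. Positions, classes, snoRNA and microRNA genes, overlaps and transcripts came from GENCODE M21 (GRCm38), and promoter windows and mature microRNAs from RefSeq (GRCm38.p6). Where symbols of 10 genes differed from GENCODE M21, genes were joined by ID.

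The 181 genes and the gene lists were chosen with earlier results of these data known, and the snoRNA host group after values were seen. Named genes are the 12 called genes with the largest difference in each direction, the 10 most abundant, all listed lncRNAs, genes at the threshold, neighbours of called genes and up to 3 of each protein list; others were named after their values were seen. Alternatives covered the pseudocount, the filter, scaling, trend, a replicate block, each library left out, overlapping gene models summed and other level thresholds.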

Additional observations from a re-analysis of the deposited data

How the results depend on the processing

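None of the 36 called lncRNAs reversed direction under any alternative run. The call held for 11 of them with each library left out in turn, for 12 under all other settings and for 10 under both, namely Neat1, Xist, D5Ertd605e, 4930519L02Rik, Gm49980, Gm20658, I730030J21Rik, Rab26os, Snhg6 and 1110038B12Rik; 7 were lost with any library left out. With every gene above 0 tested, 7 lncRNAs were higher, 13 lower and 4 snoRNA hosts lower, against 12, 24 and 7. Without the intensity trend 4 hosts were lower. With a library left out, the ranges were 3 to 6 higher, 8 to 16 lower and 3 to 5 hosts lower; the lowest number higher came without L28BME replicate 1, and the lowest numbers lower (8, with 3 hosts) without ME replicate 2. The difference in summed TPM ranged from -40.4 to 439. A level of at least 2 TPM gave 19 higher and 31 lower of 387 genes, and at least 10 TPM gave 7 and 15 of 96. Under the alternatives chosen after seeing the data, 3 hosts of the list by symbol and 4 hosts free of coding overlap were lower. Same-numbered libraries did not deviate together (correlations of -0.032, -0.074 and -0.052), so the numbers were not taken as pairs; with a replicate block, 4 lncRNAs were higher, 10 lower and 3 hosts lower. Summing overlapping models ended the calls of Zfas1, Snhg3, 6530402F18Rik and Tmem147os on the same or either strand, of Gm20707 on the same strand and of 4930515G01Rik and Tug1 on either strand; both ways gave calls for Mir22hg (lower) and Mir17hg (higher). The call of the coding gene Pspc1 ended without a filter, with the block and without ME replicate 1, ME replicate 3, L28BME replicate 1 or L28BME replicate 2. The cause of these changes was not tested. Without read counts, depth limits cannot be stated for single genes.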

Other observations

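Of the 389 tested lncRNAs below the level of 5 TPM in 3 libraries, 10 were higher (2.57%) and 9 lower (2.31%), against 8.28% and 6.60% of all tested genes. Libraries of the groups did not overlap in 22.9% of the 389, against 36.7% of all tested genes. The largest fall was that of 2610035D17Rik, at 2.67, 2.51 and 2.12 TPM in ME and at 0.357, 0.261 and 0.189 TPM in L28BME (log2 difference -1.44, limma adjusted p = 0.00144). Gm33332 had 3.33, 3.25 and 2.31 TPM in ME and 0.887, 0.496 and 0.474 TPM in L28BME (-1.29, limma adjusted p = 0.00555). Upward, Gm11998 had 1.33, 1.16 and 0.758 TPM in ME and 4.10, 4.06 and 3.29 TPM in L28BME (1.21, limma adjusted p = 0.00445), and 6720427I07Rik had 1.54, 1.48 and 1.58 TPM in ME and 3.49, 3.36 and 3.42 TPM in L28BME (0.80, limma adjusted p = 0.00317). 4632404H12Rik, which missed the level by the smallest margin, was also lower, at 4.96, 5.29 and 5.19 TPM in ME and 3.47, 3.30 and 3.54 TPM in L28BME (-0.47, limma adjusted p = 0.0137).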
